A study of Mus musculus with 60 samples.

Results

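The bacteria described here are the Negativicutes, the class that holds Veillonella, Dialister, Megasphaera and Selenomonas. Members were chosen by taxonomy alone: every sequence feature of the 16S rRNA gene table whose deposited lineage names the class Negativicutes. That gave 513 features of 8574 in the table, and of 7922 that were kept as bacterial or archaeal. They fell under 17 genus labels and held 120033 counts, 0.703% of the 17066323 prokaryote counts. The samples came from male mice given PET nanoplastics, small particles of polyethylene terephthalate, by oral gavage at 0.5 mg per day in 0.1 ml for 28 days, and from mice that were not exposed. Lung tissue, colon tissue, oral swabs and stool were taken at day 28, and stool also after week 1. Each site and time had 6 libraries from PET mice and 6 from unexposed control mice, 60 in all. The design names 12 mice, 6 per arm. The labels do not say which libraries share a mouse, so nothing was paired, and the p-values below reflect how libraries of one group differ, which may be partly technical.

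Negativicutes are anaerobes of the phylum Firmicutes whose cells, unlike those of most relatives, carry an outer membrane with lipopolysaccharide and stain as Gram-negative. Many live on the acids that other bacteria release and form propionate, a short-chain fatty acid. Veillonella ferments lactate, which streptococci and lactobacilli make, and Megasphaera elsdenii, known from the rumen, does so too. Phascolarctobacterium, Succiniclasticum and some Dialister turn succinate into propionate. Selenomonas and Centipeda are curved, motile rods known from the human gum line and, for Selenomonas, the rumen.

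A share below is the percentage of a library's prokaryote counts that belonged to a taxon. Shares sum to a fixed total, so more of one taxon and less of the others cannot be told apart. Library totals ran from 10543 to 326834 counts in lung, 59063 to 280575 in colon, 119454 to 428830 in oral swabs and 16521 to 1083575 in stool. Lung and colon DNA was extracted with one kit and oral swab and stool DNA with another, so kit and body site cannot be told apart across those pairs. Muribacter, a genus of the rodent mouth, took 36.02% to 67.5% of PET and 22.2% to 69.9% of control oral swab counts. In lung it took 0.108% to 1.04% in PET and at most 0.552% in control libraries.

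On average, Negativicutes took their largest share of counts in lung and their smallest in stool. In lung the class took 10.1%, 7.99%, 4.04%, 0.752%, 2.24% and 5.38% of the 6 PET libraries and 1.85%, 13.7%, 2.02%, 11.6%, 0.768% and 3.73% of the 6 control libraries. The arms overlapped almost wholly, with means of 5.08% ± 3.51 in PET and 5.61% ± 5.56 in control lungs (SD, n = 6 each). The class ranked 7 of 38 classes in PET lungs and 5 of 40 in control lungs. In stool at day 28 it reached at most 0.00133% in PET and 0.0257% in control libraries, and 3 of 6 libraries in each arm had no count. In stool after week 1 the highest shares were 0.0421% in PET and 0.00615% in control libraries.

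The colon held the clearest gap between arms. The class took 0.878%, 0.533%, 0.470%, 0.202%, 7.04% and 0.167% of the PET colon libraries, against 0.0103%, 0.166%, 0.0182%, 0.00595%, 0.0165% and 0.00157% of the control colon libraries. Every PET value lay above every control value, although the lowest PET share (464 counts, 95% Wilson interval 0.152% to 0.182%) and the highest control share (291 counts, 0.148% to 0.186%) differed by less than their counting error. PET library 5 stood far above the others, with an interval of 6.83% to 7.26%. The mean was 1.55% ± 2.70 in PET and 0.0364% ± 0.0638 in control colons (SD, n = 6 each), and 0.450% ± 0.288 in PET colons without library 5.

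In oral swabs the arms were ordered the other way, apart from a single library. PET swab 2 held 8.86% Negativicutes (interval 8.78% to 8.95%), while the other 5 PET swabs held 0.0079% to 0.0534%. The 6 control swabs held 0.0892% to 0.548%, so 5 of 6 PET swabs lay below every control swab. PET swab 2 alone carried 98.9% of the class counts of its group. The mean was 1.51% ± 3.605 in PET and 0.329% ± 0.168 in control swabs (SD, n = 6 each), and 0.0335% ± 0.0173 in PET swabs without library 2. These class totals were not tested, because the members of the class were tested one by one.

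**Figure D1:**
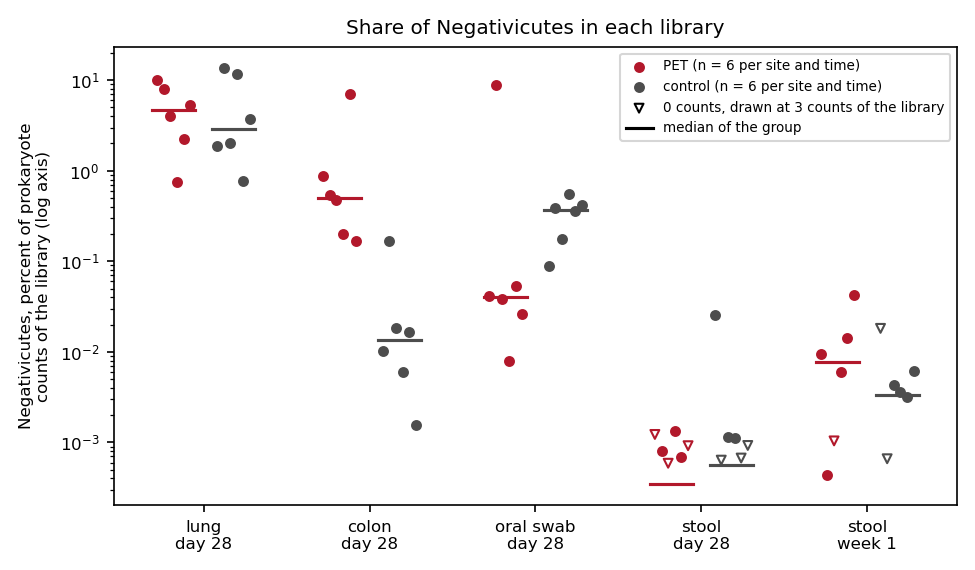
Negativicutes as a percentage of the prokaryote counts of each library (vertical log axis), by body site and time, with PET libraries in red left of control libraries in grey (6 each), bars at the group medians and open triangles at 3 counts of the library where no count was found. Lung libraries sit between 0.752% and 13.7%, PET colons lie above control colons, and 5 of 6 PET oral swabs lie below all control swabs.

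Only a few libraries carried most of the class. The 4 richest libraries (PET oral swab 2, control lungs 2 and 4, and PET lung 1) held 76.3% of all Negativicutes counts. By family, Veillonellaceae had 300 features and 77.9% of the class counts, Selenomonadaceae 167 features and 14.4%, and Acidaminococcaceae 41 features and 7.49%. The remaining 5 features had no family.

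The libraries fell towards 2 kinds of make-up. In one, Veillonella came with Selenomonas, Centipeda and Selenomonadaceae of no named genus. These 4 labels together made up 91.5%, 93.5% and 97.1% of the class counts in PET colons 1, 2 and 3, 90.9% and 91.1% in PET lungs 1 and 6, and 90.6% in control lung 4. In the other, Dialister, Megasphaera, Megamonas, Phascolarctobacterium and Acidaminococcus made up 97.2% in PET colon 5, 97.9% in PET oral swab 2, 97.96% in control lung 2, and 96.2% and 97.5% in PET lungs 3 and 4. Both kinds occurred in both arms of the lung. Several libraries lay between them, such as control lung 6 at 53.1% for the first set and 42.1% for the second. The sets were formed after the values were seen and were not tested.

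Detection overlapped within each set, but also between the sets. Selenomonas was found in 15 libraries, and all 15 also held Veillonella, which was found in 32. Centipeda was found in 12 libraries, and all 12 held Veillonella and Selenomonas. Dialister was the most widely detected genus, in 45 libraries, followed by Phascolarctobacterium in 35. All 14 libraries with Megamonas and all 16 with Acidaminococcus also held Dialister and Phascolarctobacterium. Between the sets, 14 of the 15 Selenomonas and 30 of the 32 Veillonella libraries also held Dialister. Veillonella was found in 15 of the 16 Acidaminococcus and 12 of the 14 Megamonas libraries. Deeper libraries can show more genera, and the part of depth in these counts was not tested.

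**Figure D2:**
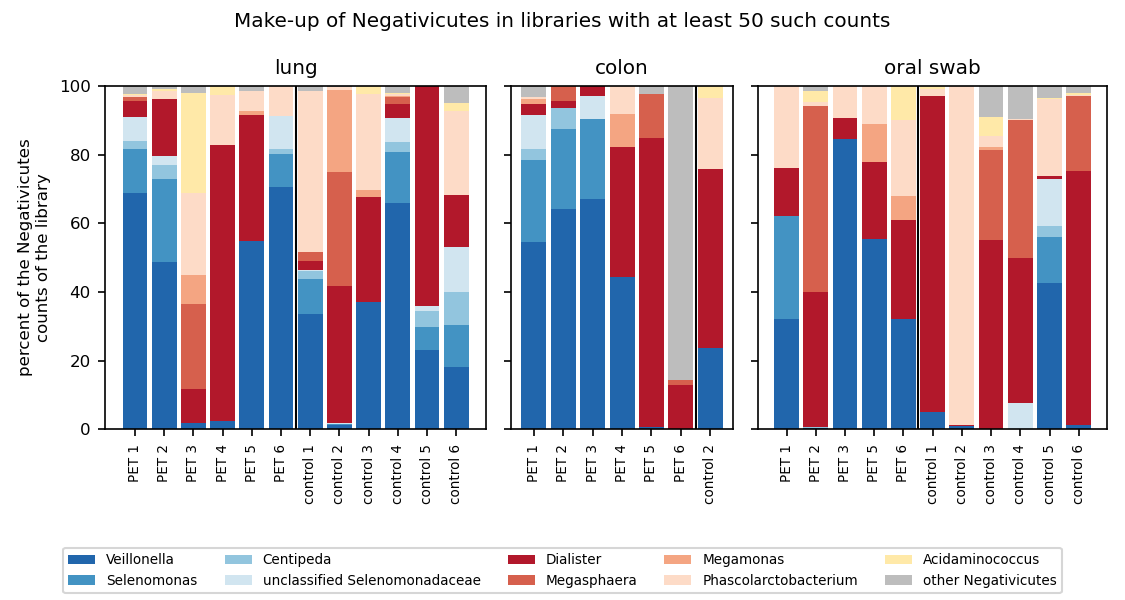
Percentage of each library's Negativicutes counts by genus label, for lung, colon and oral swab libraries with at least 50 such counts (PET left of the black line, control right of it). Blue shades (Veillonella, Selenomonas, Centipeda, unclassified Selenomonadaceae) fill PET colons 1 to 3, while red shades (Dialister, Megasphaera and others) fill PET colon 5, PET oral swab 2 and control lung 2.

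Body sites at day 28 were compared on counts summed by genus with edgeR's quasi-likelihood test and Benjamini-Hochberg adjustment over all genera, taking both arms together. Genera were tested if they had at least 10 counts in the fit and were found in at least 3 of its libraries. A genus was called at an adjusted p below 0.05, and values after ± are standard errors of the fitted log2 fold change. The quantities in the next 3 paragraphs are differences, not levels. A fold given as "at least", here and below, compares pooled shares, with a group without counts taken to hold 3. Such a bound has no TMM scaling of libraries, unlike the edgeR values, so its size is not on their scale. Any p beside it comes from the fit.

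Every Negativicutes genus tested was higher in lung than in stool, 11 of 11, beside 66.3% of all 258 genera called higher and 83.3% called in either direction. The median log2 fold change was 10.61 over the 11 genera and 6.47 over all genera. It was 10.63 with genera absent from stool set at their unscaled bounds. Veillonella was higher in lung by 11.67 ± 1.73 on the log2 scale (adjusted p = 2.5e-07). Selenomonas was absent from all day 28 stool libraries and was at least 7966-fold higher in lung (adjusted p = 1.4e-06), and Centipeda at least 1615-fold higher. Genera without a count in stool could enter this test only through the lung libraries, so the count of genera called and the medians are descriptions. Oral swabs also exceeded stool for all 10 genera tested, where 57.5% of 200 genera were called higher and 70.5% in either direction. Their median log2 fold change was 9.85, against 6.20 over all genera, and 8.30 with absent genera at their unscaled bounds. With library totals in place of TMM scaling the medians were 6.89 and 3.15. The colon exceeded stool for 4 of 7 genera, Selenomonas, Megasphaera, Dialister and Veillonella, where 28.3% of 173 genera were called higher and 32.4% in either direction. Selenomonas and Megasphaera were found in 3 PET colons each and in no control colon. PET colon 5 held 3316 of the 3690 Dialister counts in colon. How far these colon calls rest on 1 arm or on single libraries was not tested.

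Between lung and oral swab 4 of 13 genera were called, all higher in lung. Veillonella was higher in lung by 4.18 ± 1.05 (log2, adjusted p = 0.0039), Centipeda by 4.97 ± 1.58 (0.015) and Selenomonas by 4.46 ± 1.48 (0.019). The label unclassified Veillonellales-Selenomonadales had no count in oral swabs and was at least 318-fold higher in lung (0.0096). They stood beside 20.4% of 289 genera called higher and 30.8% called in either direction, so the share called was close to that background. The unnamed Selenomonadaceae (4.46 ± 2.17, adjusted p = 0.11), Megamonas (5.04 ± 2.00, 0.051), Dialister (-0.46 ± 1.03), Megasphaera (-1.03 ± 1.92) and Phascolarctobacterium (0.58 ± 1.04) did not pass the test. With library totals in place of TMM scaling, the median of all genera moved to 3.87 from 1.41 and 7 of the 13 were called.

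Lung exceeded colon for 4 of 11 genera, beside 32.2% of 267 genera called higher and 40.8% called in either direction. They were Veillonella (3.39 ± 1.21, adjusted p = 0.023), Phascolarctobacterium (3.72 ± 1.35, 0.025), Acidaminococcus (5.69 ± 2.11, 0.026) and Megamonas (5.54 ± 2.21, 0.037), all on the log2 scale. Selenomonas (4.73 ± 2.02, 0.052) narrowly missed the threshold. Colon and oral swab differed in 1 of 10 genera, beside 12% of 208 genera called lower and 15.9% called in either direction. This was Acidaminococcus, a genus that ferments glutamate, which was lower in colon by 5.67 ± 1.96 (log2, adjusted p = 0.043), and the call was lost with library totals (adjusted p = 0.17).

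**Figure D3:**
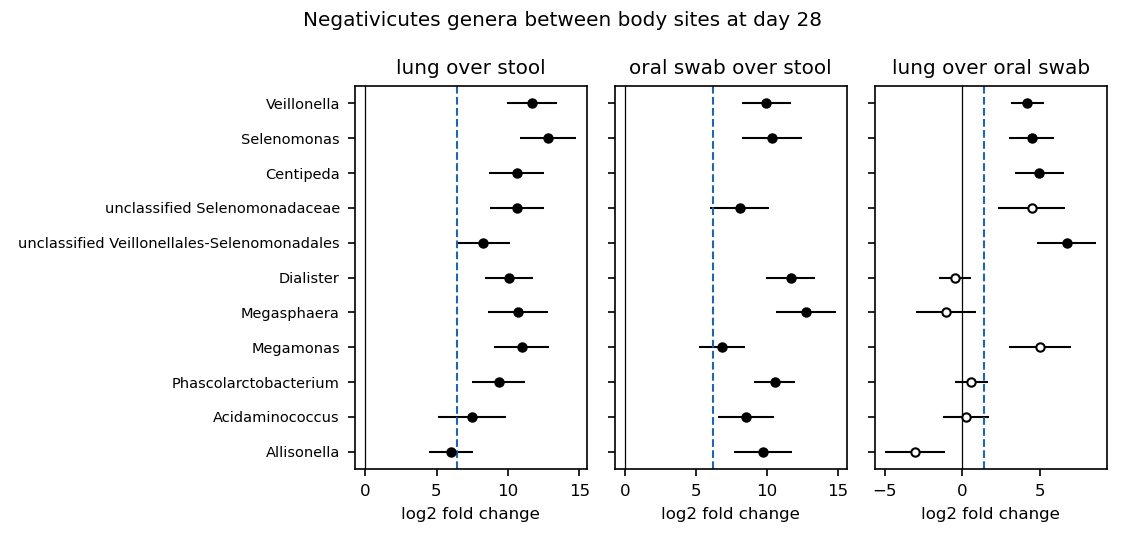
Fitted log2 fold changes of Negativicutes genera between body sites at day 28 (horizontal axes; bars are standard errors, filled points passed an adjusted p of 0.05, the dashed line is the median of all genera tested, and genera too rare for a fit have no point). All points lie right of 0 for lung and oral swab over stool, while for lung over oral swab the genera split, with Veillonella, Selenomonas and Centipeda right of 0 and Dialister and Megasphaera near it.

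Of the Negativicutes genera, the lactate user Veillonella had the highest pooled share in lung, at 2.03% against 1.39% for Dialister. PET lung 1 and control lung 4 gave 8559 and 9038 of its 22231 counts there. Other genera led the class in PET lungs 3 and 4 and in control lungs 1, 2, 5 and 6. In lung, Veillonella was thus not the leading genus of every library. It took 6.96%, 3.88%, 0.0691%, 0.0191%, 1.23% and 3.798% of the PET lung libraries and 0.623%, 0.165%, 0.746%, 7.63%, 0.177% and 0.678% of the control lung libraries. Each arm thus ranged over more than an order of magnitude, and the arms overlapped. In colon it took 0.480%, 0.343%, 0.315%, 0.0892%, 0.0412% and 0% of PET libraries, against 0.00621%, 0.0394%, 0%, 0.00297%, 0.00627% and 0% of control libraries. Of the PET colons, 5 lay above the highest control and library 6 had none. The lowest of the 5, PET library 5 (23 counts), lay barely above control library 2 (69 counts). Of the 24 stool libraries, 2 held Veillonella: PET library 6 after week 1 (92 counts) and control library 1 at day 28 (34 counts).

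Megasphaera, the other lactate user, was rarer and patchier. It was detected in 19 libraries, and 59.97% of its 31872 counts came from PET oral swab 2, where it took 4.796%, while the other 5 PET swabs had none. Control swabs 3, 4 and 6 held 0.0462%, 0.220% and 0.0910%, and the other 3 had none. In lung, PET libraries 1 and 3 held 0.102% and 0.9997%, and control libraries 1, 2 and 4 held 0.0492%, 4.53% and 0.259%. In colon it was found in 3 PET libraries, at 0.0233%, 0.906% and 0.00215%, and in no control library. Stool showed the same one-sided detection at very low counts: 4 of 6 PET libraries after week 1 (6 to 20 counts each) and 3 of 6 PET libraries at day 28 (3 to 6 counts each) held Megasphaera, and none of the 12 control stool libraries did. At each of those times 3 counts in all control libraries together would have been a share of 0.000134% and 0.000106%.

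Selenomonas, Centipeda and the unnamed Selenomonadaceae had their highest pooled shares in lung, and Selenomonas took 0.463% of all day 28 lung counts, 0.0292% of colon counts and 0.00649% of oral swab counts. Selenomonas took 1.28%, 1.95% and 0.506% of PET lungs 1, 2 and 6, and 0% of the other 3. In the control lungs it took 0.189%, 0.0499%, 0%, 1.72%, 0.0526% and 0.449%. In colon it was found in PET libraries 1, 2 and 3 (0.209%, 0.124% and 0.109%), and in no control library. Centipeda followed it in PET colons 1 and 2 (0.0269% and 0.0323%), and the unnamed Selenomonadaceae in PET colons 1 and 3 (0.0879% and 0.0320%). No stool library held Selenomonas or Centipeda.

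Dialister, a genus of small rods found in the human gut and mouth, was found in 11 of 12 lung libraries. It took 0.487%, 1.32%, 0.409%, 0.603%, 0.818% and 0% of PET lungs and 0.0467%, 5.48%, 0.622%, 0.478%, 0.492% and 0.567% of control lungs. The median was 0.545% in PET and 0.530% in control lungs. In colon it took 0.0296%, 0.0113%, 0.0134%, 0.0768%, 5.94% and 0.0215% of PET libraries, and 0.00414%, 0.0868%, 0.0135%, 0%, 0.00783% and 0.00157% of control libraries. Outside PET library 5 the colon arms overlapped, and PET library 5 held 3316 of the 3493 Dialister counts of its group. In oral swabs the range was 0.00205% to 3.50% with a median of 0.00676% in PET and 0.00177% to 0.311% with a median of 0.0900% in control libraries.

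Of the succinate users, Phascolarctobacterium was found in as many lung libraries. It took 0.0667% to 0.973% of PET lungs (median 0.161%) and 0% to 0.906% of control lungs (median 0.339%). All 12 oral swabs held it, at 0.00353% to 0.0966% in PET and 0.000771% to 0.382% in control swabs. In colon it was detected in 2 PET and 4 control libraries, at no more than 0.0165% and 0.0343%. Succiniclasticum, a rumen genus that lives on succinate, had a single feature with 398 counts in PET colon 6, where it made up 85.8% of the class, and 23 counts in a PET lung.

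Of the remaining labels, several had most of their counts in 1 library. Control lung 2 held 95.8% of the Megamonas counts (3.29% of that library), and PET oral swab 2 held 57.4% of those of Acidaminococcus. PET oral swab 2 also held 74.2% of the Allisonella counts, a genus that forms histamine from histidine. PET lung 1 held 62.6% of the counts of Anaeroglobus, a genus described from the human mouth. Mitsuokella had 177 counts in 5 libraries. Unclassified Veillonellaceae had 294 counts in 2 control lungs, and Anaerovibrio and Negativicoccus had 29 and 26 counts in 1 library each.

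**Figure D4:**
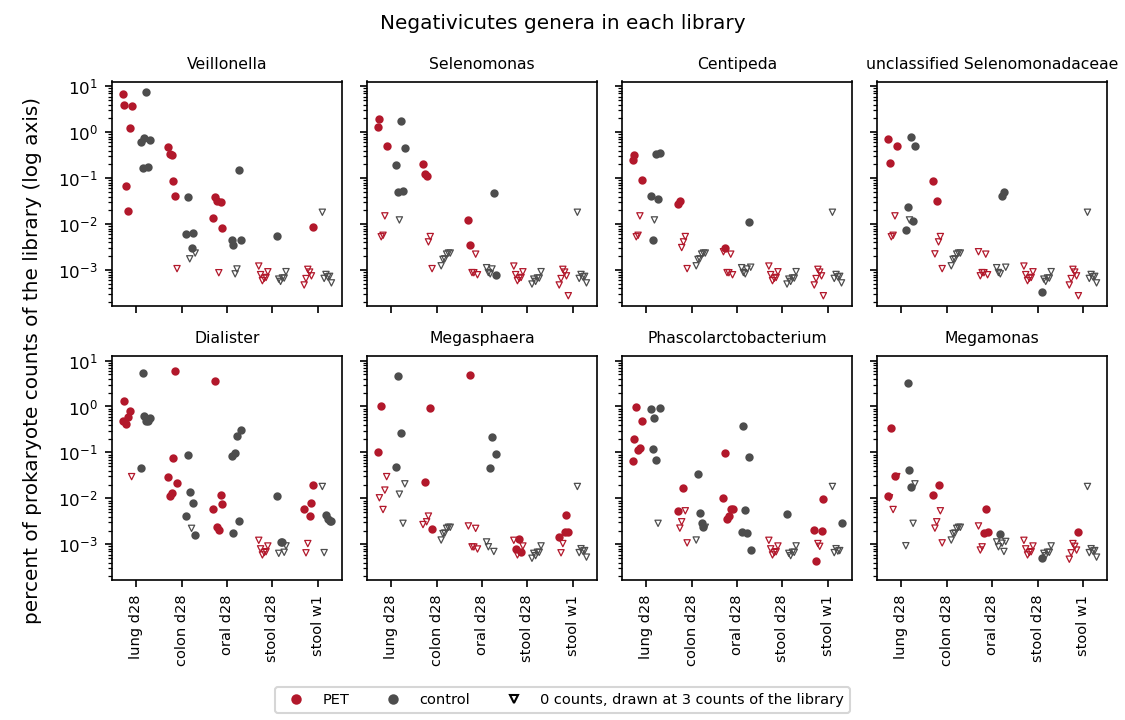
Share of each of 8 Negativicutes genus labels in every library (vertical log axis, percent of prokaryote counts), by site and time, with PET in red left of control in grey (6 libraries each; d28 is day 28, w1 is week 1) and open triangles at 3 counts of the library where none was found. Selenomonas and Megasphaera have filled points in 3 PET colons each and in no control colon, while in lung the arms overlap for all 8 labels.

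In colon, Negativicutes genera were called between the arms. Of 5 genera tested 4 were higher in PET colons, beside 13.7% of all genera tested called higher and 15.8% called in either direction. Dialister was higher by 5.44 ± 1.56 and Veillonella by 4.82 ± 1.63 on the log2 scale (adjusted p = 0.011 and 0.033, edgeR). Selenomonas and Megasphaera, absent from all control colons, were at least 219-fold and 236-fold higher (adjusted p = 0.0034 and 0.0036). Each of these genera was found in exactly 3 PET colons, the fewest that allowed a test, so it could be tested only because the arms differed, and the count of 4 and the median are descriptions. Phascolarctobacterium did not pass the test (-0.74 ± 2.05, adjusted p = 0.93). The median log2 fold change was 5.44 over the 5 genera, also with the absent genera at their bounds, and 0.63 over all genera.

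How far each of these calls rested on single libraries differed. Without PET colon 5 the Dialister difference was 1.39 (log2, adjusted p = 0.91), and without control colon 1 its adjusted p was 0.072. The Megasphaera bound dropped to at least 17.4-fold without PET colon 5, while the Selenomonas bound was at least 138.5-fold without its highest library. Neither genus could be tested without any of the 3 PET colons that held it. Veillonella kept a log2 fold change of 4.42 to 5.12 when each library was left out in turn, but its adjusted p ran from 0.015 to 0.11 and it was called in 6 of 12 such fits. The call was lost without PET colon 1 or 3 and without control colon 1, 3, 4 or 6. DESeq2 called Selenomonas (adjusted p = 0.0042) and Veillonella (0.028), with 7.19% of the genera called, and gave no adjusted p for Dialister or Megasphaera. Exact two-sided permutation tests, with libraries of 0 counts tied, gave unadjusted p of 0.069 for Dialister, 0.076 for Veillonella and 0.18 for Selenomonas and Megasphaera. The 0.18 was fixed by detection in 3 PET colons and no control colon, and could not have been lower whatever the counts. No genus was called by these tests (9 had an unadjusted p below 0.05). With 6 libraries per arm, a single genus could not have passed the adjustment alone.

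Other genera moved with these members in colon. Of 11 tested genera on a list of 23 mouth genera, 7 were also higher in PET colons and none was lower. This stood beside 13.7% of all genera tested called higher and 15.8% called in either direction. The median log2 fold change of the 11 was 7.93, against 0.63 over all genera. The list was chosen with earlier results known, so the count and the median are descriptions. Of 4 lactate producers tested, 0 were higher and 1, Lactobacillus, was lower. Of 8 human gut genera tested 1 was higher, and of 10 succinate and propionate producers 1. It was the same genus, Succinivibrio, which is on both lists. Neisseria was found in PET colons 1, 2 and 3 (0.154%, 0.249% and 0.141%) and in no control colon, and Fusobacterium likewise (0.199%, 0.180% and 0.0651%). These are the same 3 libraries that held Selenomonas, and like it both genera entered the test through PET colons alone. Summed over their list, mouth genera took 0.102% to 2.05% of PET and 0.0488% to 1.65% of control colons, so the sums overlapped. PET colon 5, the Dialister-rich library, held 10.1% of the 9 genera on a list of human gut genera, against 0.217% to 1.36% in the other PET colons and 0.149% to 1.28% in control colons. Faecalibacterium alone, a butyrate producer of the human gut, took 6.72% there. Lung libraries carried 2.30% to 13.3% in PET and 2.08% to 15.9% in control of the same list, and their part in the colon result was not tested.

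In lung, oral swab and stool no Negativicutes genus was called between the arms. In lung 0 of 11 were called by edgeR and by DESeq2, and none had an unadjusted p below 0.05, with 0% of 233 genera called by edgeR and 1.72% by DESeq2. Control lungs 5 and 6 have label numbers of a second series, which held no PET lung. Without these libraries edgeR again called 0 of 11, and the median log2 fold change of the members was -0.15 in place of 0.24. DESeq2 gave no adjusted p for 4 of the 11, Dialister and Megasphaera among them. The largest fitted difference there was Acidaminococcus, at 4.33 ± 2.17 (log2, adjusted p = 0.55), of whose 695 PET counts 663 came from library 3; without that library it was -0.26. In oral swabs 0 of 8 were called by either tool, none had an unadjusted p below 0.05, and 0% of 176 genera were called. Phascolarctobacterium was at -2.41 ± 1.30 (log2, adjusted p = 0.86), and at 0.12 without control swab 2. Dialister was at 0.26 ± 1.55 (adjusted p = 0.98), and at -4.50 (adjusted p = 0.28) without PET swab 2. Megasphaera was at 1.73 ± 2.46 (adjusted p = 0.98), and without PET swab 2 no PET swab held it.

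In stool 0 of 3 genera were called after week 1 and 0 of 2 at day 28, by edgeR and by DESeq2, where 0% of all genera were called at either time. At an unadjusted p below 0.05 stood Megasphaera after week 1, and Megasphaera and Dialister at day 28. Dialister had no count in PET stool at day 28, against 80 counts in 3 of 6 control libraries, 69 of them in library 1. Over time in PET mice, Dialister had no count at day 28, against 291 counts in 4 of 6 libraries after week 1, at least a 71.2-fold lower share (adjusted p = 0.093, not called). Phascolarctobacterium had none at day 28, against 130 counts in 4 libraries after week 1 (at least 31.8-fold lower, adjusted p = 0.12, not called). Without PET library 6 after week 1, 84 Dialister and 23 Phascolarctobacterium counts remained, and the bounds were 31.1-fold and 8.51-fold. In control mice neither passed the test (Dialister -0.36 ± 1.69, adjusted p = 0.93), and the difference between arms in this change was not called for Dialister (adjusted p = 0.068) or Phascolarctobacterium (0.10), and it could not be estimated for Megasphaera. For these 3 stool contrasts over time 0% of 145 genera were called, with 2, 0 and 2 of the 3 members at an unadjusted p below 0.05.

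The exposure difference in colon was also set against the mean exposure difference of lung, oral swab and stool at day 28. Of 13 genera 2 were called, both higher, beside 1.92% of 313 genera called higher and 2.56% called in either direction. Dialister differed by 7.84 ± 2.08 (log2, adjusted p = 0.018) and unclassified Selenomonadaceae by 12.85 ± 3.36 (adjusted p = 0.018). Both sizes rest on groups without a count, PET stool for Dialister, and PET swabs, control colons and PET stool for the Selenomonadaceae. With stool left out the Dialister difference was 5.37 (adjusted p = 0.053). Within colon alone, the Dialister exposure difference was 1.39 without PET colon 5 (edgeR, adjusted p = 0.91). That library held 3316 of the 3690 Dialister counts in colon. The contrast across sites was not refitted without PET colon 5 or any other single library. The fit could not estimate the difference for 8 of the 13, Selenomonas and Megasphaera among them, and Veillonella was not called (5.54 ± 1.80, adjusted p = 0.078).

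At the level of single features, Negativicutes were scattered. Of 513 features, 458 (89.3%) were found in 1 library only, against 73.8% of all prokaryote features, and these held 37.5% of the class counts, against 2.15% for all features. By genus this applied to 204 of 218 Veillonella, 92 of 95 Selenomonas and all 39 unnamed Selenomonadaceae features, but to 28 of 44 Dialister features. Only 9 features were found in 10 or more libraries, and 5 at all 5 sites and times. Lung libraries held 11 to 94 features in PET and 14 to 97 in control mice, and colon libraries 3 to 29 (median 16) in PET and 1 to 7 (median 3) in control mice. Expected numbers at the lowest depth of each site were close to these (16.1 ± 10.7 in PET and 3.03 ± 2.15 in control colons, SD, n = 6 each).

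**Figure D5:**
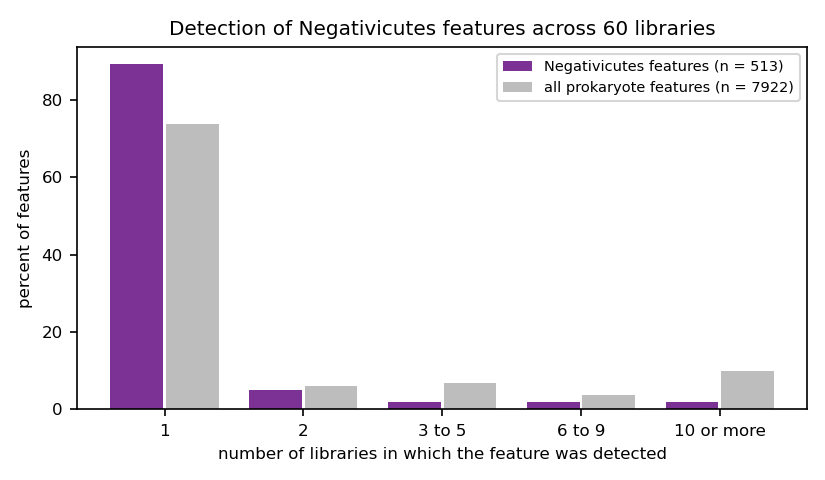
Percentage of features (vertical axis) by the number of libraries in which they were detected, for the 513 Negativicutes features in purple and all 7922 prokaryote features in grey. The bar for 1 library reaches 89.3% for Negativicutes and 73.8% for all features.

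Of the 9 features found in 10 or more libraries, 4 carried a species name in the deposited taxonomy. A Dialister_invisus feature was found in 26 libraries with 1746 counts. It had 549, 82, 21, 5, 0 and 0 counts in the PET lungs and 28, 18, 48, 84, 500 and 75 counts in the control lungs. A Phascolarctobacterium_faecium feature was found in 24 libraries with 1388 counts. A Veillonella_ratti feature, named for a species first described from rats, was found in 22 libraries with 674 counts, and was the main Veillonella of the control colons (81 of 96 counts). In PET colons the same feature gave 43 of 1384 Veillonella counts, the rest coming from 35 other features. The 12 Veillonella_atypica and 9 Selenomonas_sputigena features bear names of species known from the human mouth.

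One Megasphaera_elsdenii feature held 22014 counts, the most of any member, and was found in 10 libraries at all 5 sites and times. It had 11426 counts in PET oral swab 2, 9969 in control lung 2, 371 in PET colon 5 and 90 in PET lung 3. A Dialister feature without a species name held 5968 counts in 13 libraries. It was found in control swabs 1, 3, 4 and 6 (157, 223, 323 and 421 counts) and in no PET swab, and in stool after week 1 in 2 PET and 3 control libraries. This oral swab difference was not called by edgeR (log2 -10.97 ± 2.66, adjusted p = 0.41, with 0% of 460 features called), but was by DESeq2 (adjusted p = 0.0065, with 1.52% called). No other tested member feature was called by either tool at any site: 0 of 5 in colon (2.35% of 468 features called by edgeR and 2.14% by DESeq2), 0 of 21 in lung (0% of 454 and 1.1%) and 0 of 2 in stool after week 1 (0% and 1.1% of 728). At an unadjusted p below 0.05 edgeR had 1 in colon, 1 in lung and none in that stool. The first was a Veillonella feature and the second a Megasphaera_elsdenii feature, and DESeq2 gave neither an adjusted p. It also gave none for some other tested member features in colon and lung, and for a Megasphaera_elsdenii feature in oral swabs. At day 28 no member feature in stool was frequent enough to be tested (0% of 737 features called by edgeR and 2.85% by DESeq2).

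The PET colons together had 87 features and the control colons 12, of which 6 were shared, 6.90% of the PET and 50% of the control features. The 6 held 1.97% of the PET colon class counts and 85.4% of the control colon class counts. For all prokaryote features the shared part was 39.2% of 1416 PET and 60.8% of 913 control features. Of the 87 PET colon features, 24 also occurred in lung libraries, and they held 70.1% of the PET colon class counts. That is 27.6% of these features, against 36.2% over all prokaryote features of the PET colons. PET lungs had 179 and control lungs 208 features, with 31 shared, 17.3% of the PET and 14.9% of the control features, against 31.5% and 24.4% over all prokaryote features.

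Single libraries also shared members, and in 3 of the 5 pairs given here the share was below that of all prokaryote features of the first library. PET colon 1 shared 10 of its 29 features (34.5%, with 40.7% of its class counts) with PET lung 1, against 33.01% of all its features, and 9 (31.03%) with control lung 4, against 33.99%. PET colon 5 shared 4 of its 11 features (36.4%, with 84.5% of its class counts) with control oral swab 3, against 32.3% of all its features. It also shared 4 (82.8% of its class counts) with control lung 2, against 48.6% of all its features. PET lung 1 shared 17 of its 94 features (18.1%) with control lung 4, against 26.2% of all its features. These pairs were picked after their values were seen, and how features came to be shared was not tested.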

How the data were processed

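The authors deposited counts, whole numbers of reads per feature and library with no normalization, from a biom file per the file headers. Their taxonomy table, also deposited, lists a lineage for each feature with the classifier's confidence as a fraction. Per the submitters' processing notes, the tools included cutadapt and Bowtie2, and the mouse build was GRCm39. Which denoiser, classifier and database were used is not given in the sources used here. Stool and oral swab DNA came from a PowerLyzer PowerSoil kit and tissue DNA from a Blood and Tissue kit, per the labels. The 619 features without a taxonomy line and the features of no prokaryote were left out.

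Members, taxon lists and tests were chosen with earlier results of these data known. Counts were summed by genus label (567 labels) or kept per feature, and tested with edgeR 4.0.16 in R 4.3.3 (TMM scaling, quasi-likelihood F test, Benjamini-Hochberg adjustment). The standard error is the log2 fold change over the root of F. The pipeline was tested on simulated data. DESeq2 1.42.0, exact permutation tests, other scalings and filters, a classifier confidence of at least 0.9 and left-out libraries were alternatives. A group without counts was taken to hold up to 3, and bounds built on this are ratios of pooled shares without TMM scaling. PCR copies of a molecule are counted more than once, so the intervals and limits given describe counting error alone. Genera were named with at least 100 counts or a call, and features if called, among the 12 with most counts, or found at 3 or more sites and times.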

Additional observations from a re-analysis of the deposited data

Results flagged for a closer look

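Single libraries stood apart from the other 5 of their group in the share of Negativicutes in 5 of 10 groups, by Dixon's test of the gap to the nearest library over the range. Chance gives about 1 in 20 for normally distributed values, and these shares are skewed. PET colon 5 had 7.04% and PET oral swab 2 had 8.86%, the Dialister and Megasphaera rich libraries of the report. Control colon 2 had 0.166%, mostly Dialister, Veillonella_ratti and Phascolarctobacterium. PET stool 6 after week 1 had 0.0421%, in the deepest library of the series, and control stool 1 at day 28 had 0.0257%. Results on colon and oral swabs without the first 2 libraries stand in the report.

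The exposure difference in colon departed from the mean exposure difference of lung, oral swab and stool for Dialister, by 7.84 on the log2 scale, and for unclassified Selenomonadaceae, by 12.85. Both rest on groups with no count at all. For Dialister, PET colon 5 also held 3316 of the 3690 colon counts, and this contrast was not refitted without that library.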

How the results depend on the processing

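Alternatives changed 1 choice at a time. In colon, where 4 genera were called between the arms, the number was 3 with TMMwsp or library totals, 4 at a classifier confidence of at least 0.9 and 5 without a filter, but 2 with DESeq2, 0 with a filter of 50 counts in 6 libraries and 0 by both exact permutation tests, of which the one with zeros tied was added after seeing the data. The filter of 6 libraries left Selenomonas and Megasphaera untested. By the permutation tests a single genus could not have passed the adjustment alone. With 1 library left out it ran from 2 to 4. Under the stricter filter the Dialister and Veillonella differences were 4.83 and 4.88 (log2, adjusted p = 0.083 and 0.088), with fewer genera tested. For oral swab features DESeq2 called 1, against 0 by edgeR. For PET stool over time the stricter filter called 1, against 0. For oral swab over stool it called 5, all that were left to test. Library totals called 7 for lung over colon, 7 for lung over oral swab and 0 for colon over oral swab, and the stricter filter 2 for lung over oral swab and 3 for colon over oral swab. For colon against the other sites library totals called 4, and leaving stool out, also added after seeing the data, called 4. No genus called between the arms in colon changed direction under any alternative run. For Selenomonas and Megasphaera this was fixed in advance, because no control colon held them. Of 25 other fits of a genus between the arms, 17 changed direction when 1 library was left out. Leaving out 1 library gave -0.26 to 4.59 for lung Acidaminococcus, -4.50 to 1.64 for oral swab Dialister, -10.71 to 3.24 for oral swab Megasphaera and -2.67 to 0.12 for oral swab Phascolarctobacterium (log2). Oral swab Dialister was also below 0 with DESeq2 (-0.028), with exact permutation (-1.39, or -1.41 with zeros tied) and at a confidence of at least 0.9 (-0.69). Oral swab Megasphaera was below 0 with exact permutation (-1.75, or -2.37 with zeros tied). At a confidence of at least 0.9 the class had 350 features, against 513. No paired analysis was possible because the libraries carry no number or label that ties them to an animal across groups.

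Depth limits what can be said of stool: 3 counts over a group there are a share of 9.4e-05% to 0.000134%. The shallowest lung library had 10543 counts. Shares carry no information on bacterial load. Extraction kit and body site cannot be told apart for tissue against swab or stool.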
